A study of Mus musculus with 6 samples.

Results

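A set of 40 genes for DNA replication and S phase was examined in cold-exposed brown adipose tissue (BAT), which burns lipid to make heat. The genes were listed by name for what their proteins do, with earlier results of these data known. All 40 were found among the 25206 features of the array table. They comprised 9 genes of the replicative helicase, 5 of origin licensing, 14 of the polymerases, the sliding clamp and the joining of DNA strands, 5 of nucleotide supply, 3 of chromatin assembly and 4 that control entry into S phase. No filter on weak signal was used, so every member was tested.

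BAT came from 6 female mice of the strain FoxP3 DTR B6, with 1 array of whole-tissue RNA per mouse. In these animals the receptor for diphtheria toxin (DT) is driven by Foxp3 regulatory elements, so that the toxin kills regulatory T (Treg) cells throughout the body and not in fat alone. The 3 DT mice (DT 5, DT 9 and DT 16) received the toxin and the 3 PBS mice (PBS 12, PBS 18 and PBS 20) received saline, in both cases into the peritoneum on 2 consecutive days. Both groups carried the receptor, were housed singly at 22°C for 1 week, entered the cold after the first injection and were killed 2 days later. The labels give 4°C for the cold, whereas the study's methods name a milder one, and the age of the mice is not given in the sources used here. There was no array of a mouse without the receptor that received the toxin. On these arrays, an effect of the toxin itself and an effect of losing the targeted cells therefore cannot be told apart. In wild-type animals, the study reported oxygen consumption unchanged by the toxin, with the data not shown.

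Before a cell divides it copies its DNA once. In late G1 the origin recognition complex, CDC6 and CDT1 load the ring of MCM2 to MCM7 onto DNA, and in S phase CDC45 and the GINS complex turn this ring into a working helicase. Polymerase alpha with primase starts each new strand, polymerases delta and epsilon extend it on the clamp PCNA, and LIG1 seals the fragments of the lagging strand, while ribonucleotide reductase supplies deoxynucleotides and CAF-1 places histones on the new DNA. Many of these genes are transcribed under E2F factors, which are held back by the retinoblastoma family until cyclin-dependent kinases release them. Mature brown adipocytes are largely post-mitotic, and cold is known to make precursor and endothelial cells divide in this tissue.

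The question was which transcripts of cold-exposed BAT differ after the toxin, here for the genes that copy DNA. Values are deposited log2 expression estimates, where 1 unit is a doubling, and each difference is DT minus PBS with the moderated standard error (SE) of limma. A gene was called, and is said to have risen or fallen, at an adjusted p below 0.05 over all features. Of the 25206 features, 1.73% were called in all, 1.29% with higher and 0.444% with lower levels after DT. Array values spanned 3.01 to 14.1 around a median of 5.10, and the median difference over all features was -0.01. Foxp3 itself averaged 4.40 ± 0.10 in DT mice and 4.56 ± 0.16 in PBS mice (SD, n = 3 each), both below the array median. The difference was -0.16 (adjusted p = 0.587), so whole tissue gave no call for the gene that drives the receptor. By RT-PCR of Foxp3 in BAT and spleen, the study reported that the toxin rapidly depleted the targeted cells. The 12 brown adipocyte markers, Ucp1 among them, all lay at or above the 78.3 percentile of mean signal, and 0 of them were called. Ucp1 was at 13.98 to 14.01 on all arrays, near the top of the range, where a change would be hard to see. By RT-PCR, the study reported lower expression of thermogenic genes in BAT of DT mice. Of the genes on that panel, Dio2 was at 0.40 here (adjusted p = 0.278), with all DT arrays above all PBS arrays. Prdm16 was at -0.26 (adjusted p = 0.299) and Cidea at -0.09, both with DT arrays all below PBS arrays, and Pparg was at 0.01. Of the 12 markers, 6 had differences above 0 and 6 below.

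Of the 40 replication genes, 6 rose and 0 fell in DT mice, where 1.29% and 0.444% of all features did so. The 6 were Mcm4, Mcm5, Mcm6 and Mcm7, which are subunits of the helicase ring, Lig1, the DNA ligase of the lagging strand, and Rrm2, the regulated subunit of ribonucleotide reductase. Their differences lay between 0.64 and 0.98, that is 1.56-fold to 1.98-fold. The other 34 genes did not pass the test. Over all 40, 33 differences were above 0, where 46% of all features were, and they spanned -0.29 (Rfc4) to 0.98 (Mcm5) around a median of 0.24. All DT arrays lay above all PBS arrays for 18 of the 40 genes, where 8.51% of all features did so, and below them for 1 gene, Tyms, where 10.1% of all features did so. At an unadjusted p below 0.05, 17 were higher and 1 was lower, where 6.43% and 6.83% of all features were. In bulk tissue, a change in the number of cells of a type and a change in RNA per cell cannot be told apart. This holds for every difference given here.

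**Figure D1:**
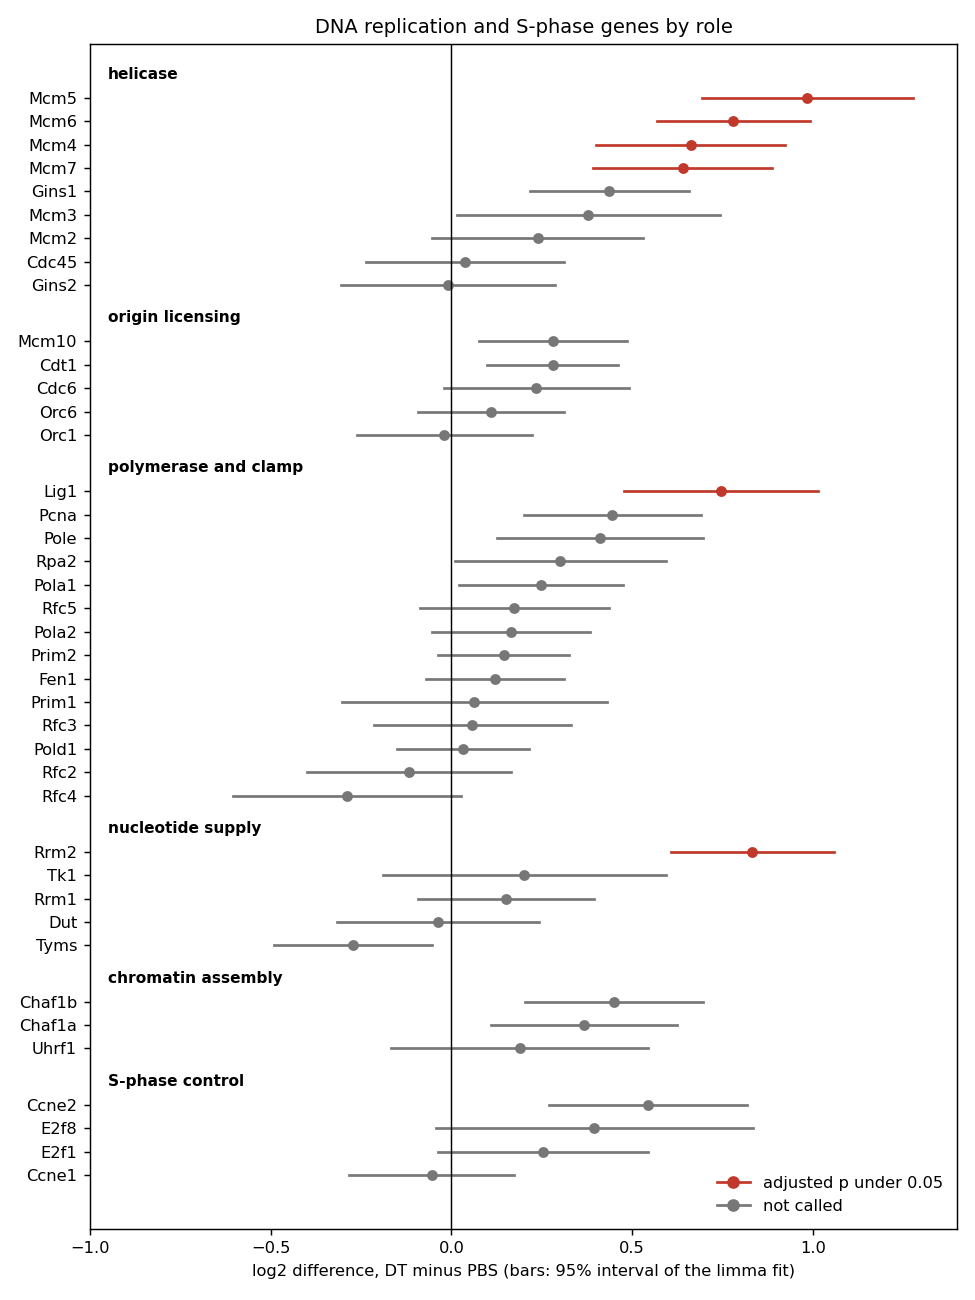
Difference of each of the 40 genes, DT minus PBS in log2 units, grouped by role, with the 95% confidence interval of the limma fit. The 6 called genes stand at 0.64 to 0.98 and the remaining 34, which were not called, between -0.29 and 0.54.

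The helicase genes held 4 of the 6 calls. Mcm5 was at 6.39, 6.33 and 6.05 in DT 5, DT 9 and DT 16, against 5.27, 5.44 and 5.11 in PBS 12, PBS 18 and PBS 20. Every DT array was above every PBS array, by 0.60 or more, and Mcm5 showed the largest difference of the 40 genes. It averaged 6.26 ± 0.18 in DT mice and 5.27 ± 0.17 in PBS mice (SD, n = 3 each), a rise of 0.98 (SE 0.12, 1.98-fold, adjusted p = 0.0144). Mcm6 had 7.04, 6.94 and 6.97 in DT mice, against 6.32, 6.24 and 6.05 in PBS mice. Its 3 DT values were within 0.11 of each other and apart from the PBS values, and the rise was 0.78 (SE 0.09, 1.72-fold, adjusted p = 0.0105).

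Mcm4 and Mcm7 rose by less. Mcm4, which together with MCM6 and MCM7 forms the catalytic core of the ring, had 6.91, 6.69 and 6.76 in DT mice, against 5.96, 6.12 and 6.31 in PBS mice. The groups did not overlap, PBS 20 came nearest to the DT mice, and the rise was 0.66 (SE 0.11, 1.58-fold, adjusted p = 0.0373). Mcm7 had 7.69, 8.02 and 7.78 in DT mice, against 7.18, 7.28 and 7.11 in PBS mice. The groups were again apart, with DT 9 the highest of the 6 arrays, and the rise was 0.64 (SE 0.11, 1.56-fold, adjusted p = 0.0349).

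The 2 further subunits of the ring did not pass the test. Mcm3 had 5.24, 4.85 and 5.00 in DT mice, against 4.35, 4.84 and 4.76 in PBS mice, a difference of 0.38 (95% interval 0.01 to 0.74, adjusted p = 0.354). DT 9 and PBS 18 differed by only 0.01, so the groups were barely apart. Mcm2 had 5.94, 5.63 and 5.52 in DT mice, against 5.45, 5.34 and 5.58 in PBS mice, a difference of 0.24 (95% interval -0.05 to 0.53, adjusted p = 0.484), and here the groups overlapped. The 6 proteins act as a ring with 1 copy of each, and 6 of 6 transcripts had a difference above 0, with a median of 0.65. Whether the differences of Mcm2 and Mcm3 were smaller than those of the 4 called subunits was not tested.

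None of the partners that activate the ring was called. Gins1, a GINS subunit, had 4.53, 4.61 and 4.73 in DT mice, against 4.19, 4.30 and 4.06 in PBS mice, with a difference of 0.44 (SE 0.09, adjusted p = 0.0826) and no overlap. Gins2, another subunit of the same complex, had 5.45, 5.31 and 5.60 in DT mice, against 5.55, 5.22 and 5.62 in PBS mice, a difference of -0.01 (95% interval -0.31 to 0.29). Cdc45 showed a difference of 0.04 (95% interval -0.24 to 0.31) with overlapping groups. The remaining GINS subunits, which are not among the 40, showed 0.20 (Gins3) and -0.07 (Gins4), also with overlap, so that Gins1 was the 1 of these 5 genes with groups apart.

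**Figure D2:**
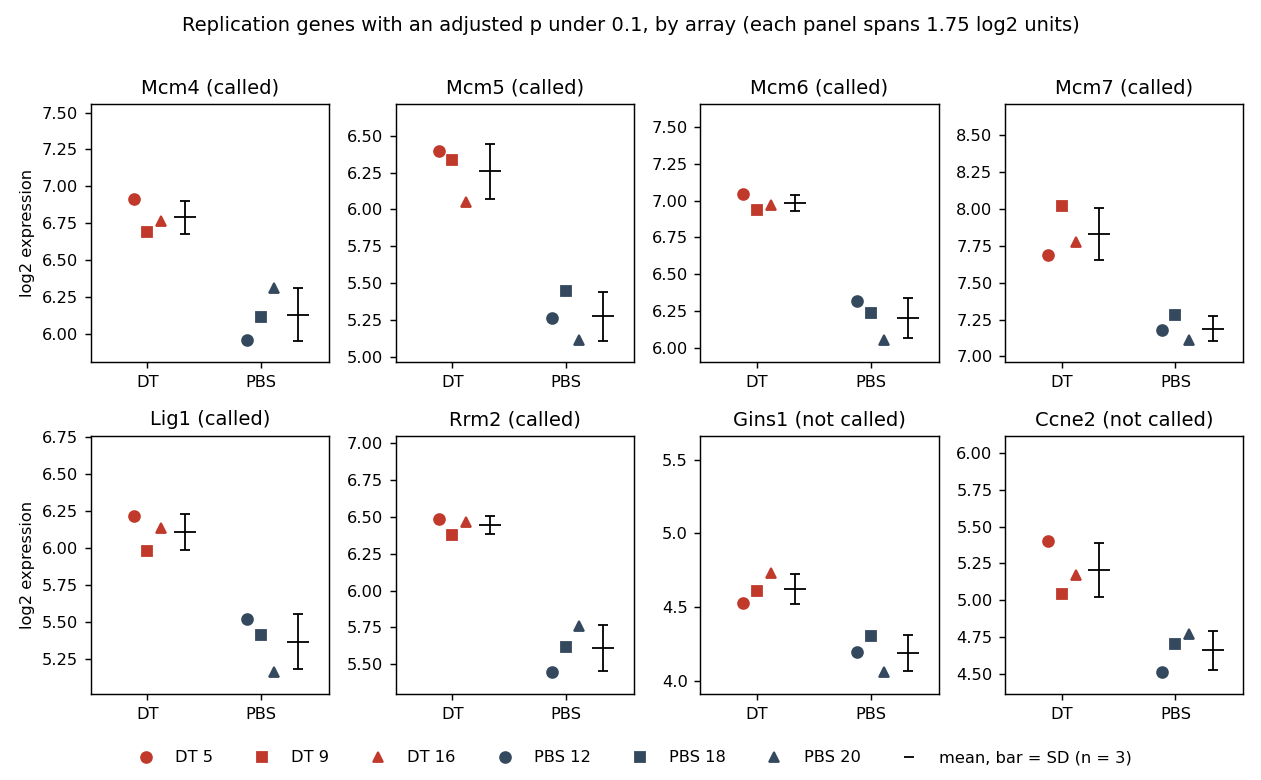
Log2 expression, on the vertical axis, of the 6 called genes and of Gins1 and Ccne2, with 1 point per array, DT mice to the left and PBS mice to the right in each panel, and the mean with SD (n = 3) beside the points. The DT and PBS points do not overlap in any of these panels, and each panel spans the same number of log2 units.

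Promoters were read to show which of these genes carry a sequence of the E2F type near their start. RefSeq windows of 300 bases, 250 before and 50 from the transcription start onwards (build GRCm38.p6), were held for 33 of the 40 genes and named for the other 7 only, which are Mcm4, Gins1, Gins2, Prim2, Pole, Rfc2 and Ccne2. An E2F site was taken as TTTCGCGC or TTTGGCGC on either strand, and matches on both strands may overlap. Genes with several starts had several windows (38 for the 33 genes), and a match in any of them counted. It was found in 10 of 33 genes (30.3%), against 251 of 27025 genes with a window (0.929%) and 212 of 17492 protein-coding genes (1.21%). The members were picked for their function and not for their promoters, but E2F control is part of what such genes are known for. Every match is given here as 30 bases on the strand of the gene, 5′ to 3′, with the matching letters in capitals, to show the stretches that these 10 genes, called or not, share.
Mcm3, chr1:20820263-20820292, minus strand: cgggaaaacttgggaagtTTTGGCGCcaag
Mcm5, chr8:75109347-75109376, plus strand: gccaagaacTTTCGCGCCAAAacgtccagc
Mcm6, chr1:128359795-128359824, minus strand: gcgtatgctTTTGGCGCGAAAagtgcgtgc
Mcm6, chr1:128359734-128359763, minus strand: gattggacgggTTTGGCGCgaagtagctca
Mcm7, chr5:138171849-138171878, minus strand: gggtgacgacgTTTCGCGCcaatttcggtt
Orc1, chr4:108579416-108579445, plus strand: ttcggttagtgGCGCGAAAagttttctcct
Cdt1, chr8:122568035-122568064, plus strand: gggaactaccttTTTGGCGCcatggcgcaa
Pola1, chrX:93632275-93632304, minus strand: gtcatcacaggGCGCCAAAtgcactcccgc
Rfc3, chr5:151651200-151651229, minus strand: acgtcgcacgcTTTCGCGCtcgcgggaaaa
Lig1, chr7:13278841-13278870, plus strand: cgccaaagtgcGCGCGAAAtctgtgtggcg
Uhrf1, chr17:56304117-56304146, plus strand: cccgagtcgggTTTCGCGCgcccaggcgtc

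The matches lay on both sides of the start. In Mcm5 they covered bases -153 to -142 and in Mcm6 bases -110 to -99, where a forward and a reverse site share letters. Mcm6 had another match at -47 to -40. In Mcm7 the match was at bases 17 to 24 and in Lig1 at 27 to 34, both after the start of the window that held it. Mcm7, Lig1 and Uhrf1 also had windows from other starts, and those held no match. Of the 10 genes with a match, 4 rose (Mcm5, Mcm6, Mcm7 and Lig1), and their differences spanned -0.02 (Orc1) to 0.98 around a median of 0.33. Of the 23 with a window and no match, 1 rose (Rrm2), with a median of 0.17. Of the 7 without a window, 1 rose (Mcm4), with a median of 0.41. Orc1 and Rfc3 carried a match close to the start and had differences of -0.02 and 0.06, so a match went with high as well as with flat differences. A match is a string of letters and says nothing of binding, and these counts were not tested.

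The 250 bases before the start are shown whole for the 2 helicase genes with overlapping sites, E2F matches in capitals, and for Rrm2, the 1 called gene with a window and no match, with its CCAAT box in capitals.
Mcm5, chr8:75109259-75109508, plus strand: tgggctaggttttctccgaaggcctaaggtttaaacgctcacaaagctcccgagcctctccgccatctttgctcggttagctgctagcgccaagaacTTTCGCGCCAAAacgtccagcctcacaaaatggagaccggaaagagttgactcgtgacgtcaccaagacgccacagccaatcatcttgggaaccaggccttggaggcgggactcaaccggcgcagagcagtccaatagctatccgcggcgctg
Mcm6, chr1:128359706-128359955, minus strand: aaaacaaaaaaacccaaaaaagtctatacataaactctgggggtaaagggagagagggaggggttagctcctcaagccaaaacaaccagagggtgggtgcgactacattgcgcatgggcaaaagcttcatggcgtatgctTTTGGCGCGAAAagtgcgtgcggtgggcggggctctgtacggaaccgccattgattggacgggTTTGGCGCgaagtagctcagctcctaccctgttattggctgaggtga
Rrm2, chr12:24708004-24708253, plus strand: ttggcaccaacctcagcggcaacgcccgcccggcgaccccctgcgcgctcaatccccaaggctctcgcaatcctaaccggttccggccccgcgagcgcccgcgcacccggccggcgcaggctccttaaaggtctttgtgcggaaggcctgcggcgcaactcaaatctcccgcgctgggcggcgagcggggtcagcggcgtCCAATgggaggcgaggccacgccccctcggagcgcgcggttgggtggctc

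Of other promoter elements, the CCAAT box (letters CCAAT on either strand), which is bound by NF-Y, was found in 19 of 33 member genes (57.6%), against 41.1% of all genes with a window. The cell cycle homology region, taken as TTTGAA, marks many genes of G2 and mitosis and was found in 4 of 33 (12.1%), against 20.2% of all genes.

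**Figure D3:**
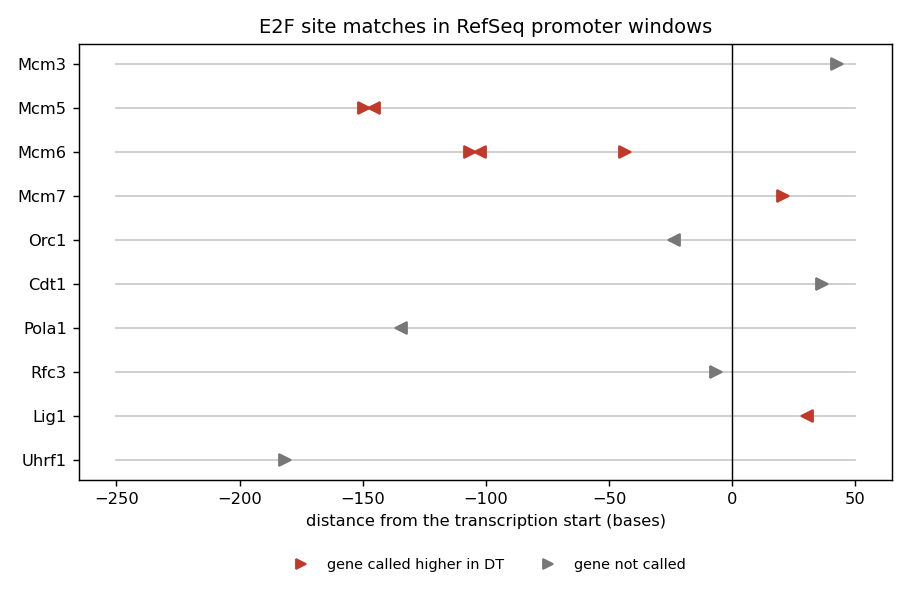
Distance of each E2F match from the transcription start of the window that holds it, in bases, for the 10 genes with a match. The direction of the marker gives the strand. Matches of the called genes Mcm5 and Mcm6 lie before the start, and those of Mcm7 and Lig1 after it.

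No origin licensing gene was called. Apart from Mcm10, their products load the helicase ring in G1. Cdt1, the loader that geminin inhibits, had 6.23, 6.19 and 6.12 in DT mice, against 5.98, 5.82 and 5.90 in PBS mice, a difference of 0.28 (SE 0.08, adjusted p = 0.171). Mcm10, which takes part in starting the fork, had 4.96, 4.88 and 4.93 in DT mice, against 4.67, 4.76 and 4.50 in PBS mice, a difference of 0.28 (SE 0.09, adjusted p = 0.221). For both genes every DT array was above every PBS array. Cdc6 showed a difference of 0.23, Orc6 of 0.11 and Orc1 of -0.02, all with overlapping groups. The median of the 5 genes was 0.23, and Orc1 and Cdc6 gave mean signals of 4.00 and 4.31 in DT mice, well below the array median.

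Of the 14 genes of the polymerases, the clamp and strand joining, 1 rose. Lig1 had 6.22, 5.98 and 6.13 in DT mice, against 5.52, 5.41 and 5.16 in PBS mice. All DT arrays lay above all PBS arrays, and Lig1 rose by 0.75 (SE 0.11, 1.68-fold, adjusted p = 0.0265). Pcna, the clamp that holds the polymerases on DNA and the member with the strongest signal, had 10.49, 10.43 and 10.43 in DT mice, against 10.10, 10.13 and 9.79 in PBS mice. Its difference of 0.45 (SE 0.10, 1.36-fold) had an adjusted p of 0.110 and so was not called, although the groups were apart and the 3 DT values lay within 0.06 of each other.

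None of the polymerase subunits was called. Pole, the catalytic subunit of polymerase epsilon, had 4.80, 5.08 and 4.89 in DT mice, against 4.31, 4.69 and 4.54 in PBS mice, a difference of 0.41 (SE 0.12, adjusted p = 0.202). Pold1, the catalytic subunit of polymerase delta, showed 0.03 (95% interval -0.15 to 0.21) with overlapping groups. The genes of polymerase alpha and primase showed 0.25 for Pola1, 0.17 for Pola2, 0.06 for Prim1 and 0.14 for Prim2, and the groups were apart for Pola1, Pola2 and Prim2 but not for Prim1. Of these genes, only Pole and Pola1 had an unadjusted p below 0.05 (0.0111 and 0.0354).

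The clamp loader genes had no common direction. Rfc4 had 7.80, 7.52 and 7.96 in DT mice, against 8.23, 7.95 and 7.97 in PBS mice, a difference of -0.29 (95% interval -0.60 to 0.03, adjusted p = 0.427), the lowest of the 40. DT 16 lay just above PBS 18, so the groups overlapped. Rfc2 showed -0.12, Rfc3 0.06 and Rfc5 0.17, also with overlap. Fen1, the nuclease that trims the fragments that LIG1 then joins, showed 0.12, and Rpa2, a subunit of the single-strand binding complex, showed 0.30 (adjusted p = 0.359). Lig1 was thus the 1 gene of this group past the test, and 6 of the 14 had groups that were apart, all with DT higher.

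Among the nucleotide supply genes, the 2 subunits of ribonucleotide reductase gave different values. Rrm2, the small subunit whose level follows S phase, had 6.49, 6.37 and 6.47 in DT mice, against 5.45, 5.62 and 5.76 in PBS mice. The groups were 0.61 apart at their nearest arrays, and Rrm2 rose by 0.83 (SE 0.10, 1.78-fold, adjusted p = 0.0105). Rrm1, the large subunit, which is more stable over the cell cycle, had 8.67, 8.70 and 8.998 in DT mice, against 8.70, 8.60 and 8.61 in PBS mice. Its difference was 0.15 (95% interval -0.09 to 0.40, adjusted p = 0.630) with overlapping groups, and DT 16 stood above the other 5 arrays. The 95% intervals of Rrm2 (0.61 to 1.06) and Rrm1 do not overlap, and the difference between the genes was not tested.

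Thymidylate synthase, Tyms, was the 1 gene whose DT arrays all lay below the PBS arrays. It had 7.65, 7.67 and 7.70 in DT mice, against 8.002, 7.77 and 8.06 in PBS mice, a difference of -0.27 (95% interval -0.49 to -0.05, unadjusted p = 0.0214, adjusted p = 0.264), which was not called. Tk1, the thymidine kinase of the salvage route, had 6.25, 6.78 and 6.41 in DT mice, against 6.21, 6.54 and 6.08 in PBS mice, a difference of 0.20 (adjusted p = 0.702). Dut, the dUTPase, showed -0.04. Of these 3 enzymes of thymidine nucleotides, 2 had differences below 0, and none passed the test.

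Chaf1a and Chaf1b encode the large subunits of CAF-1, which deposits histones H3 and H4 behind the fork, and both had groups that were apart. Chaf1b had 5.11, 5.12 and 5.05 in DT mice, against 4.82, 4.44 and 4.67 in PBS mice, a difference of 0.45 (SE 0.10, adjusted p = 0.108). Chaf1a had 4.70, 4.55 and 4.34 in DT mice, against 4.16, 4.06 and 4.27 in PBS mice, a difference of 0.37 (SE 0.11, adjusted p = 0.207). Neither was called. Rbbp4, the histone-binding subunit of CAF-1, which is not among the 40 and also serves other complexes, showed 0.05 with overlapping groups. Uhrf1, which brings the maintenance methyltransferase to new DNA, showed 0.19 (adjusted p = 0.692), with DT 16 at 5.22 inside the range of the PBS mice.

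The 4 genes that control entry into S phase were not called either. Ccne2, cyclin E2, a partner of CDK2, had 5.40, 5.04 and 5.17 in DT mice, against 4.51, 4.70 and 4.77 in PBS mice, with no overlap and a difference of 0.54 (SE 0.12, 1.46-fold, adjusted p = 0.0826). Ccne1, which encodes the other E cyclin, had 6.19, 6.42 and 6.13 in DT mice, against 6.25, 6.38 and 6.27 in PBS mice, a difference of -0.05 (95% interval -0.28 to 0.17). E2f1, an activating E2F factor and itself an E2F target, showed 0.25 (95% interval -0.04 to 0.54, adjusted p = 0.451). E2f8, an atypical E2F that represses the same targets later in S phase, had 4.84, 5.00 and 4.90 in DT mice, against 4.16, 4.95 and 4.45 in PBS mice, a difference of 0.40 (adjusted p = 0.436). PBS 18 reached the level of the DT mice for E2f8, and the other PBS mice did not.

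The 6 called genes lay between the 56.7 and 72.1 percentiles of mean signal, with weaker as well as stronger members not called. Mean signal was below the array median for 13 of the 40 genes, among them Mcm3, Gins1, Cdc6, Pole, Chaf1a, Chaf1b and Ccne2, and 0 of these 13 were called, although their median difference was 0.37 and 7 of them had DT arrays all above PBS arrays. The 27 genes above the array median held all 6 calls, with a median of 0.19.

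The values of single arrays are given as a description, since the calls rest on the same arrays. Relative to the PBS mean of each gene, the median deviation of the 6 was 0.85 in DT 5, 0.75 in DT 9 and 0.77 in DT 16, against -0.01, 0.04 and -0.12 in PBS 12, PBS 18 and PBS 20. Over all 40 genes it was 0.27, 0.22 and 0.19 in the DT mice, against 0.01, 0.05 and -0.04 in the PBS mice. DT 5 was the highest DT array for 17 of the 40 genes, and PBS 18 the highest PBS array for 19, where 32.3% and 33.7% of all features had these arrays on top. PBS 20 was the highest PBS array for 8 genes only. Deviations from the PBS mean were above 0 for 30, 35 and 34 of the 40 genes in DT 5, DT 9 and DT 16, against 21, 25 and 14 in PBS 12, PBS 18 and PBS 20.

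**Figure D4:**
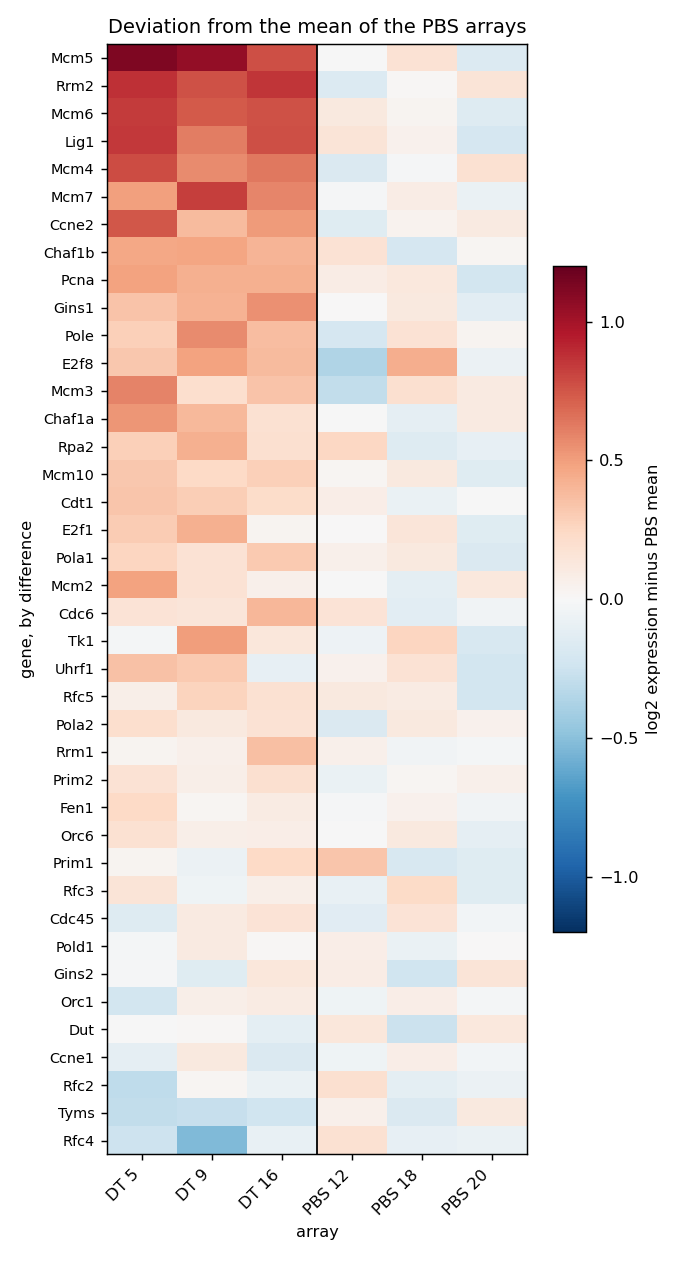
Deviation of each of the 40 genes from its PBS mean, in log2 units, on the 3 DT arrays (left) and the 3 PBS arrays (right). Genes are ordered by their DT minus PBS difference, largest first. The called genes Mcm4, Mcm5, Mcm6, Mcm7, Lig1 and Rrm2 are above 0 on all DT arrays, and the median deviation over all genes is 0.19 to 0.27 in DT mice and -0.04 to 0.05 in PBS mice.

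With 1 array left out at a time, the differences of the 6 genes stayed between 0.54 (Mcm7) and 1.09 (Mcm5), but 1 to 4 members were called, 1 without DT 16 (Mcm5) and 4 without DT 5, and 0 genes were called in all 6 such fits. Mcm6 and Rrm2 were lost only without DT 16 (adjusted p of 0.0526 and 0.0533), Mcm5 without DT 9, PBS 12 or PBS 20 (up to 0.0678), Mcm7 in each fit except that without DT 5 (up to 0.130), and Mcm4 and Lig1 in every fit (0.0527 to 0.131 and 0.0563 to 0.113).

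Beyond the 40, 113 further genes of DNA replication, its nucleotide supply and its control were measured. Of these, 1 rose, where 1.29% of all features did so. Samhd1, which breaks down deoxynucleotides and is abundant in myeloid cells, had 10.05, 9.61 and 9.54 in DT mice, against 8.69, 8.91 and 8.69 in PBS mice, a rise of 0.97 (SE 0.14, 1.96-fold, adjusted p = 0.0241). Its direction is the same as that of Rrm2, a subunit of the enzyme that supplies deoxynucleotides. It was called in 2 of the 6 fits that left out 1 array, those without DT 5 or PBS 18, and the adjusted p reached 0.101 in the others. The median of the 113 was 0.04, with 68 above 0, where 46% of all features were. DT arrays were all above PBS arrays for 21 and all below for 10, where 8.51% and 10.1% of all features were. These lists were put together by function, with earlier results of these data known, and share no gene with the 40. Whether the 113 differ from the 40 was not tested.

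The 18 other origin and helicase genes had a median of 0.07 and 0 calls. Ticrr, which with TOPBP1 brings CDC45 to the ring, had 4.16, 4.12 and 4.11 in DT mice, against 3.84, 3.86 and 3.77 in PBS mice, a difference of 0.30 (SE 0.07, adjusted p = 0.0950). Dbf4, the activator of the kinase CDC7, showed 0.32 (adjusted p = 0.257). Among the 22 other fork and polymerase genes, with 0 calls and a median of 0.04, Pclaf, a PCNA-binding protein, had 5.52, 4.86 and 5.45 in DT mice, against 4.67, 4.25 and 4.70 in PBS mice, a difference of 0.74 (SE 0.20, adjusted p = 0.166). Both Ticrr and Pclaf had groups that were apart. Dna2, a nuclease and helicase of fragment processing, showed 0.23 (adjusted p = 0.279).

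The 20 other nucleotide supply genes had a median of -0.08, with 15 of 20 differences below 0 and Samhd1 as the 1 call. Among the 11 other chromatin assembly genes, with 0 calls and a median of 0.14, Atad2, an E2F coactivator, showed 0.48 (SE 0.12, adjusted p = 0.133). Asf1a, a histone chaperone that feeds CAF-1, showed -0.31 (SE 0.07, adjusted p = 0.118). Its DT arrays stood at 7.98, 7.94 and 7.97, all below the PBS arrays at 8.21, 8.24 and 8.36.

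Cyclin A2, which drives CDK2 and later CDK1 through S phase, had the largest difference of all replication genes measured and was still not called. Ccna2 had 6.92, 6.83 and 7.27 in DT mice, against 4.83, 6.15 and 5.00 in PBS mice, a difference of 1.68 (SE 0.33, 3.21-fold, adjusted p = 0.0636). PBS 18 lay more than 1 unit above the other PBS mice, and without it the difference was 2.09 (adjusted p = 0.00518, against 0.144 to 0.212 with any other array left out). Rbl1, the retinoblastoma relative p107, showed 0.50 (SE 0.12, adjusted p = 0.102). The 21 genes of G1 and S-phase control had 0 calls and a median of 0.01.

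Of the 7 inhibitors of cyclin-dependent kinases, 0 were called. Cdkn1a, the p53 target p21, had 11.97, 12.56 and 12.65 in DT mice, against 11.50, 11.43 and 11.82 in PBS mice, a difference of 0.81 (SE 0.19, adjusted p = 0.115). Cdkn1c, p57, had 5.59, 5.45 and 5.68 in DT mice, against 6.14, 5.85 and 6.22 in PBS mice, a difference of -0.49 (SE 0.12, adjusted p = 0.112). The groups of both were apart, in opposite directions. With 1 array left out, each passed the test in 1 of 6 fits, Cdkn1a without DT 5 (adjusted p = 0.0347, up to 0.306 in the others) and Cdkn1c without PBS 18 (0.0498, up to 0.298 in the others).

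The 14 genes of fork repair and checkpoints, 13 of which were below the array median, had 0 calls and a median of 0.12. Rad54l, a motor protein of homologous recombination, had 4.36, 4.20 and 4.25 in DT mice, against 3.65, 4.05 and 3.92 in PBS mice, with no overlap and a difference of 0.40 (SE 0.11, adjusted p = 0.194).

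Genes of the next phase of the cycle were set beside them. Of 20 genes of G2 and mitosis, 10 rose and 0 fell, where 1.29% and 0.444% of all features did so. Their median was 0.60. DT arrays were all above PBS arrays for 18, where 8.51% of all features did so. The largest was Cdk1, the mitotic kinase, at 1.95 (3.87-fold), followed by Mki67 at 1.54, Ccnb2 at 1.45 and Top2a at 1.38. The mean log2 level of the 20 was 5.54, 5.56 and 5.74 in DT mice, against 4.70, 5.01 and 4.76 in PBS mice, and PBS 18 was again the highest PBS array. Whether the 2 sets differ was not tested, and the G2 and mitosis genes were known to move before they were set beside the replication genes.

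**Figure D5:**
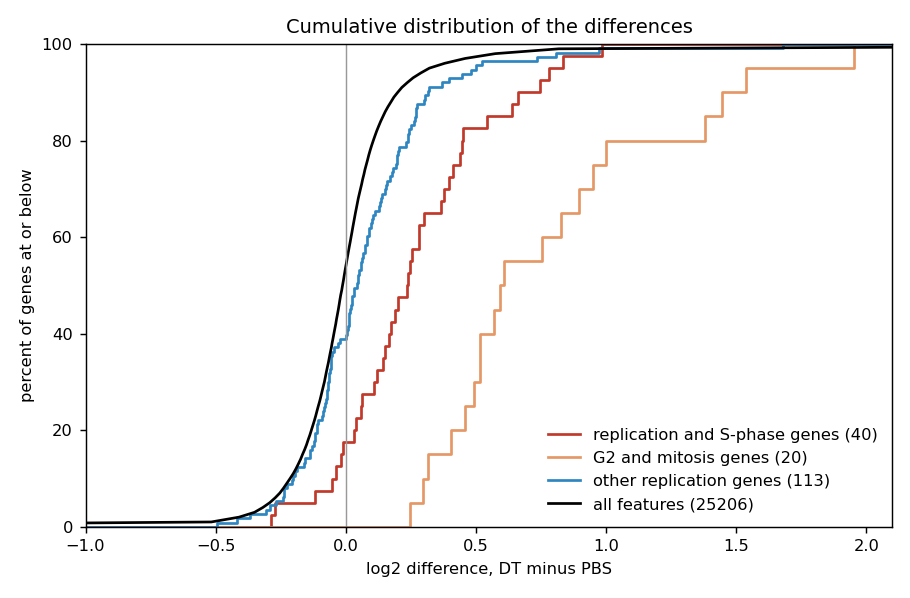
Cumulative share of genes, in percent, against the DT minus PBS difference in log2 units, for the 40 replication genes, the 113 other replication genes, the 20 G2 and mitosis genes and all 25206 features. The medians are 0.24, 0.04, 0.60 and -0.01.

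Some markers of macrophages, fibroblasts and T cells were called higher in the same DT mice, and most were not. Of all features, 1.29% were called higher. Of 11 measured macrophage markers, 4 rose (Lgals3, Cd68, Trem2 and Itgam, by 1.72 to 2.45), and the mean log2 level of the list was 7.88 to 8.04 in DT mice, against 6.93 to 7.17 in PBS mice. Of the 7 others, C1qa at -0.03, Cd14 at 0.03, and Csf1r and Mertk at 0.18 each had overlapping groups. Fcgr1 at 1.07, Mrc1 at 0.71 and Adgre1 at 0.59 had DT arrays all above PBS arrays but were not called. Of 8 fibroblast and preadipocyte markers, 3 rose (Col3a1, Col1a1 and Pdgfra, by 0.66 to 1.16). Mean levels of the 8 were 9.29 to 9.50 in DT mice, against 8.62 to 8.999 in PBS mice. All 8 differences were above 0, and DT arrays were all above PBS arrays for 7, where 8.51% of all features did so. Of 10 T cell markers, 9 were below the array median and 1 rose (Il7r, by 2.03), with mean levels of 4.64 to 4.96 in DT mice, against 4.49 to 4.51 in PBS mice. The other 9, none of them called, had differences between -0.30 (Cd4, with all DT arrays below the PBS arrays) and 0.34 (Cd3g), and the median of all 10 was 0.09.

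The remaining lists held 0 calls. The 8 endothelial markers had mean levels of 9.53 to 9.65 in DT mice, against 9.57 to 9.65 in PBS mice, and the 12 brown adipocyte markers 12.03 to 12.09 in DT mice, against 11.99 to 12.06 in PBS mice. B cell markers lay at 4.31 to 4.49 in DT mice, against 4.47 to 4.58 in PBS mice, and neutrophil markers at 4.22 to 4.58 in DT mice, against 4.21 to 4.22 in PBS mice, both near the lower end of the range. Muscle markers were uneven within the groups, at 9.36, 9.59 and 6.24 in DT 5, DT 9 and DT 16, against 7.54, 9.30 and 8.19 in PBS 12, PBS 18 and PBS 20. The part of the macrophage, fibroblast and T cell markers in the rise of the 6 replication genes was not tested, and whole-tissue arrays do not show which cells held these transcripts.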

How the data were processed

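Biotin-labelled total RNA of BAT from 6 mice was measured on Affymetrix arrays, 1 per mouse. The authors deposited log2 expression estimates, 1 per Entrez gene of a custom chip definition, for 25206 features. The submitters' processing notes name RMA and the methods quantile normalization, and the sorted values of the 6 arrays were within 0.00179 of each other, so a shift common to all genes of a group would have been removed. Sample titles gave the group and the number of each mouse. Differences were fitted with limma 3.58.1 in R 4.3.3 (lmFit and eBayes, DT minus PBS, 2-sided), adjusted by Benjamini-Hochberg over all 25206 features, with a threshold of 0.05. The mixed-model analysis of variance of the study was not repeated, since its random terms are not known here. Arrays have no read depth, and their number limits the precision. The arrays are described as separate mice, so the p-values set each difference against the spread between mice. That spread was moderated by limma with the variances of all features.

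The members and lists were chosen with earlier results of these data known. All 40 members may be named. Of each other list, up to 4 called genes are named by smallest p or, with none called, the 2 of smallest unadjusted p. Marker lists without a call, uncalled macrophage and T cell markers, Gins3, Gins4, Rbbp4, Foxp3 and Ucp1 were named outside this rule. A gene that the rule would name is not reported here. Lyz2, of the macrophage list, had no feature. Gene symbols were those of the platform annotation with current Entrez names, and 1466 features had none. Promoter sequences are from RefSeq, build GRCm38.p6, matched by Entrez gene number for 33 members and searched for exact letters. The script was tested on simulated data. The alternatives tried were normalization, filters on weak features, variance models, array weights, thresholds and leaving out each array.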

Additional observations from a re-analysis of the deposited data

How the results depend on the processing

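All 6 called members stayed called after quantile normalization once more, median centring, cyclic loess, both filters on weak features, an intensity trend with a robust prior, and array weights; with the trend, Pcna was called as well (7 members, adjusted p = 0.0202). The unmoderated model called 0 members and 0 of all features (15 members and 2986 features had an unadjusted p below 0.05), and a 2-fold change with p below 0.01 gave 0 members and 178 features. An adjusted p below 0.1 gave 8 members, with Gins1 and Ccne2 added, and 736 features, and the trend 659 features. Leaving out 1 array gave 1 to 4 members and 135 to 374 features, against 6 and 436 with all arrays. The median difference of the members was 0.19 without features below the median signal and 0.19 to 0.26 with 1 array left out. Counting only the 150 bases before the start, 15.2% of member genes held an E2F site, against 0.488% of all genes.

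Of the 40 members, 32 kept their sign with each array left out. The other 8 had differences near 0 and ranged from -0.0283 to 0.134 (Cdc45), -0.129 to 0.0677 (Gins2), -0.0780 to 0.0809 (Orc1), -0.0331 to 0.232 (Prim1), -0.0069 to 0.0703 (Pold1), -0.0133 to 0.173 (Rfc3), -0.164 to 0.0297 (Dut) and -0.141 to 0.0042 (Ccne1). Gins2 also turned to 0.0125 with cyclic loess and to 0.0086 with array weights, and Orc1 to 0.0015 with array weights. The cause of these changes was not tested. Ccna2 passed the test without features below the median signal (adjusted p = 0.0467) and with array weights (0.0464), but not without the lowest 25% (0.0502). No paired analysis was possible because the groups share no animal number. Precision was limited by 3 mice per group and a median residual SD of 0.123 over all features.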
